A study of Mus musculus with 12 samples.

Results

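The genes examined here are mouse Apof, which encodes the endogenous apolipoprotein F, and 9 further genes whose proteins build, remodel, load or take up high-density lipoprotein (HDL). They were chosen by name, and a probe set counted for a gene where the platform annotation gave that symbol alone. Of the 10 genes, 9 had such a probe set, 1 each, among 23521 single-symbol probe sets for 22180 genes. Lipc, the gene of hepatic lipase, was not analysed here. Each value below is therefore the level of 1 probe set, which is the only and the brightest one of its gene.

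Liver RNA of male C57BL6/J mice aged 8 to 10 weeks was hybridised to 12 arrays, 1 per sample. All animals carried an Ad5 adenovirus given through a tail vein 4 days earlier: Ad-GFP, which delivers green fluorescent protein and is the control, in 6 samples (GFP 1 to 6), and Ad-hApoF, which delivers human ApoF, in the other 6 (hApoF 7 to 12). They were killed at 3 pm after a fast of 6 h, and livers without virus were not analysed here. The labels give neither the promoter driving the transgenes, nor the viral dose, nor any statement that each array is a separate animal, so p-values describe the spread between these samples. The mouse Apof probe set does not measure the human transgene, and so no value here checks the group labels.

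HDL begins when the liver and gut secrete apolipoprotein A-I, which accepts phospholipid and cholesterol from cells through the ABCA1 exporter. The enzyme LCAT then esterifies the cholesterol and rounds the particle, phospholipid transfer protein adds surface lipid from other lipoproteins, and the receptor SR-BI lets hepatocytes take up the cholesteryl ester. Apolipoprotein F is a minor secreted protein of lipoproteins, known in human plasma as lipid transfer inhibitor protein because it restrains the cholesteryl ester transfer protein, which mice lack. The comparison asks whether liver transcripts of this pathway differ when human ApoF is delivered.

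Among the 9 measured genes Pltp alone passed the test, and it was 1.39-fold higher in hApoF livers. Apoa1 (1.13-fold higher) and Abca1 (1.14-fold lower) had unadjusted p below 0.05 but did not pass after adjustment. For Apof, Apoa2, Apom, Lcat, Abcg1 and Scarb1 the 95% interval of the difference included 0. Adjusted over all 22180 genes, 1 of 9 members was called higher and 0 lower (limma with Benjamini-Hochberg), where 6.91% of all genes were called, 2.11% higher and 4.8% lower. The 469 genes behind the higher share were 307 without GFP 1, 254 without GFP 2 and 267 without either GFP 3 or GFP 6. They were 653 without GFP 4, and between 320 (without hApoF 9) and 452 (without hApoF 12) in the remaining single omissions. At an unadjusted p below 0.05 the members counted 2 higher and 1 lower, against 10.1% and 11.1% of all genes (21.3% in either direction). In none of the 9 did the groups separate without overlap, which 4.98% of all genes did. The median log2 difference was 0.04 over the members and 0.03 over all genes. The shares over all genes include dim genes. In a fit limited to the 11090 genes above the median level, 2107 genes were called, and of the 9 members Pltp alone.

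**Figure D1:**
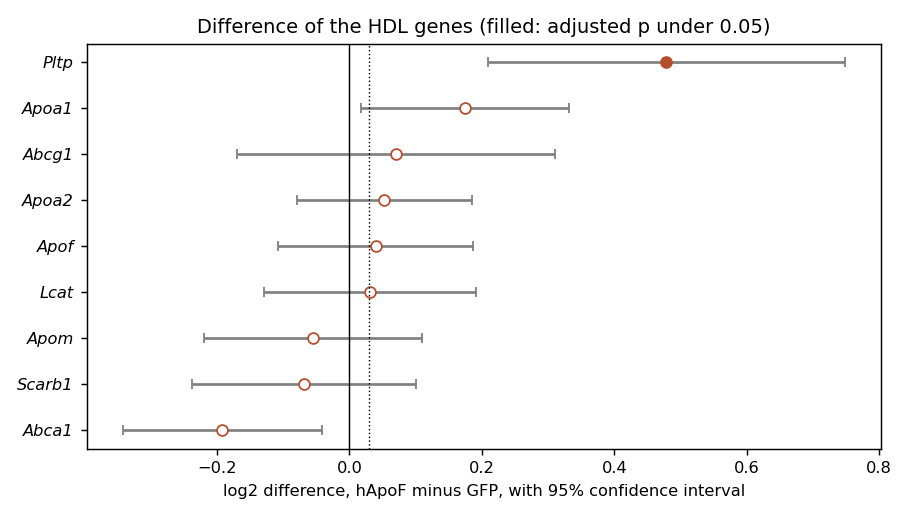
Log2 difference, hApoF minus GFP, of the 9 measured HDL genes, with 95% confidence intervals from the limma fit. The filled point marks the adjusted p below 0.05 (Pltp, 0.48), the open points did not pass, the solid line is 0 and the dotted line the median of all genes, 0.03.

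Some array-wide facts touch these values. Array medians were 4.93 to 5.03 on the log2 scale. Upper quartiles mostly followed the groups, at 6.73 to 6.81 in the GFP arrays except GFP 4 (6.67). In the hApoF arrays they were 6.67 to 6.68, except in hApoF 11 (6.73). After a further quantile normalization the difference of Apoa1 was 0.12 instead of 0.17, and that of Pltp 0.51 instead of 0.48. The hepatocyte marker list (8 of 8 genes measured, 0 passing) had a mean level of 12.71 to 12.76 in GFP and 12.77 to 12.81 in hApoF livers, with Alb, albumin, at 13.44 and 13.50. These ranges of the list mean did not overlap, and 6 of the 8 markers had positive differences (median 0.06, over all genes 0.03). Apob, Cps1 and Fgb separated without overlap and the other markers did not, where 4.98% of all genes did. Both groups thus held the labelled tissue's defining transcripts. The array hApoF 12 had the lowest value of its group in 5 of the 9 members, while over all genes it was lowest in 23.6%. It was not alone in this. GFP 6 was lowest of its group in 4 members (15.3% of all genes), and GFP 4 highest in 4 (23.9%). In a bulk sample, fewer cells of a type and less RNA per cell cannot be told apart.

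Mouse Apof itself showed no detectable difference. Its log2 level ran from 10.97 through a median of 11.06 to 11.19 in GFP livers, and from 10.93 through 11.10 to 11.26 in hApoF livers. The hApoF values enclosed the whole GFP range, with hApoF 12 at the bottom and hApoF 7 at the top. The means were 11.06 ± 0.08 and 11.10 ± 0.11 (SD, n = 6 each). The difference was 0.04 (SE 0.07, 95% interval -0.11 to 0.19, limma adjusted p = 0.792), and an exact two-sided permutation test gave p = 0.470. As a ratio the interval reaches from 0.928 to 1.14, so that a larger change of the endogenous transcript lies outside it. Leaving out 1 array at a time gave differences from 0.0078 (without hApoF 7) to 0.073 (without hApoF 12). The genes whose deviations from their group means followed those of Apof most closely over the 12 arrays were Chmp4b (Pearson r = 0.897, Spearman rho = 0.804), 4921531C22Rik (0.896 and 0.881) and Rps6kb2 (0.880 and 0.797). They are the top 3 of 22179 genes compared, all values share the same 12 arrays, and no p is given for them.

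**Figure D2:**
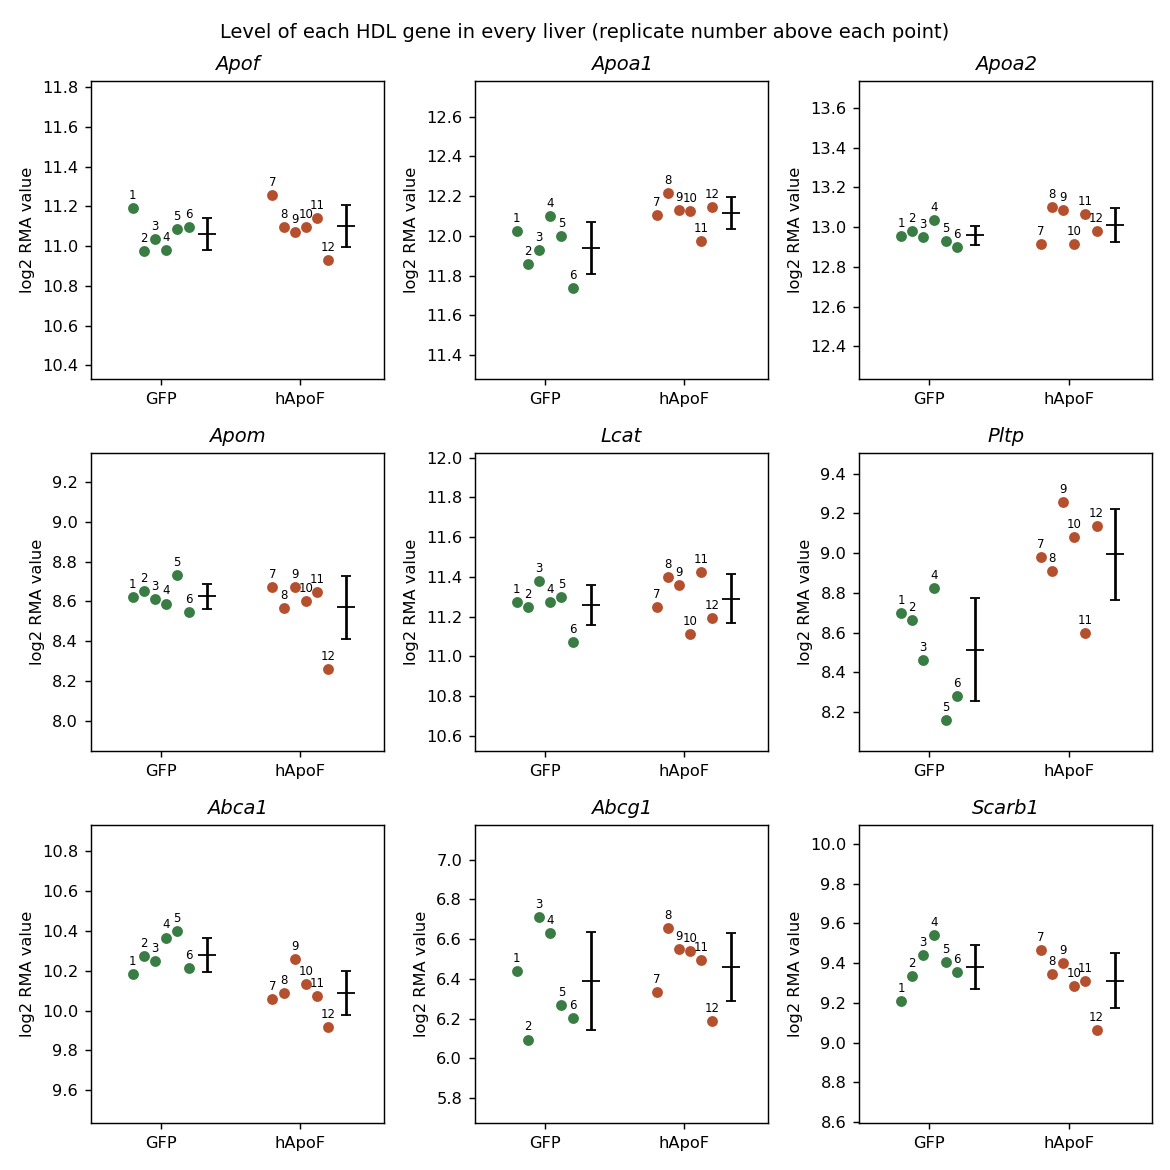
Log2 RMA values of the 9 measured HDL genes in each liver, GFP on the left and hApoF on the right of each panel, with the replicate number above each point. Black marks are group means and SD (n = 6 each), every axis spans the same log2 range, and only Pltp passed the adjusted test. In the Apom panel hApoF 12 lies at 8.26 and the other hApoF livers at 8.57 or above.

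Of the structural apolipoproteins, Apoa1 encodes apolipoprotein A-I, the main protein of HDL and the activator of LCAT. Its level was 11.74 to 12.10 (median 11.96) in GFP livers and 11.97 to 12.22 (median 12.13) in hApoF livers. All 6 hApoF livers exceeded the GFP mean and 5 of them exceeded every GFP liver, the exception being hApoF 11. The difference was 0.17 (SE 0.07, 95% interval 0.02 to 0.33). Limma gave p = 0.031 before and 0.183 after adjustment, and the exact permutation test p = 0.022. The unadjusted limma p rose to 0.059 with arrays centred on their medians and to 0.111 after a further quantile normalization. It was 0.066 without GFP 2, 0.082 without GFP 6 and 0.066 without hApoF 8. In every other setting it was lower, from 0.0093 (trend and robust settings) to 0.0495 (without hApoF 9). The difference stayed between 0.12 and 0.21.

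Apoa2 encodes apolipoprotein A-II, the second most plentiful HDL protein. It measured 12.90 to 13.03 (median 12.95) in GFP and 12.92 to 13.10 (median 13.02) in hApoF livers. The livers hApoF 8, 9 and 11 lay above every GFP liver, while hApoF 7 and hApoF 10 lay near the bottom of the GFP range. The difference was 0.05 (SE 0.06, 95% interval -0.08 to 0.18, limma adjusted p = 0.676, exact permutation p = 0.206). These values sit close to the array maxima of 13.40 to 13.55, and the effect of that position on the difference was not tested.

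Apom encodes apolipoprotein M, an HDL protein that carries sphingosine 1-phosphate. Its GFP livers lay between 8.54 and 8.73 (median 8.62) and its hApoF livers between 8.26 and 8.67 (median 8.62). The groups shared the same range apart from hApoF 12, which lay below all other livers. The difference was -0.06 (SE 0.08, 95% interval -0.22 to 0.11, limma adjusted p = 0.731, exact permutation p = 0.576). Without hApoF 12 it was 0.0066, so that its sign rests on that array.

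Lcat encodes the plasma enzyme that forms the cholesteryl esters of HDL. It measured 11.07 to 11.38 (median 11.27) in GFP and 11.12 to 11.42 (median 11.30) in hApoF livers. The groups covered nearly the same span, with GFP 6 and hApoF 10 lowest in each. The difference was 0.03 (SE 0.08, 95% interval -0.13 to 0.19, limma adjusted p = 0.852, exact permutation p = 0.647).

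Pltp encodes phospholipid transfer protein, which moves phospholipid onto HDL and converts its particles into larger and smaller ones. In GFP livers its log2 level was 8.16 at the lowest, 8.56 at the median and 8.83 at the highest, and in hApoF livers 8.60, 9.03 and 9.26. All but 1 of the hApoF livers lay above every GFP liver, the exception being hApoF 11, which lay among the GFP values, below GFP 1, GFP 2 and GFP 4. The means were 8.51 ± 0.26 and 8.99 ± 0.23 (SD, n = 6 each), so the spread within each group was wider than for most other members. Pltp rose by 0.48 (SE 0.13, 95% interval 0.21 to 0.75), a 1.39-fold change with an interval of 1.16 to 1.68. Limma gave an adjusted p of 0.033 and the exact permutation test p = 0.011.

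The call of Pltp was near the threshold. It was lost without GFP 3, GFP 5, GFP 6, hApoF 7, hApoF 9, hApoF 10 or hApoF 12 (limma adjusted p of 0.058 to 0.080), and kept without each of the other 5 arrays (down to 0.011 without hApoF 11). The difference itself stayed between 0.41 and 0.56 in these 12 fits.

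**Figure D3:**
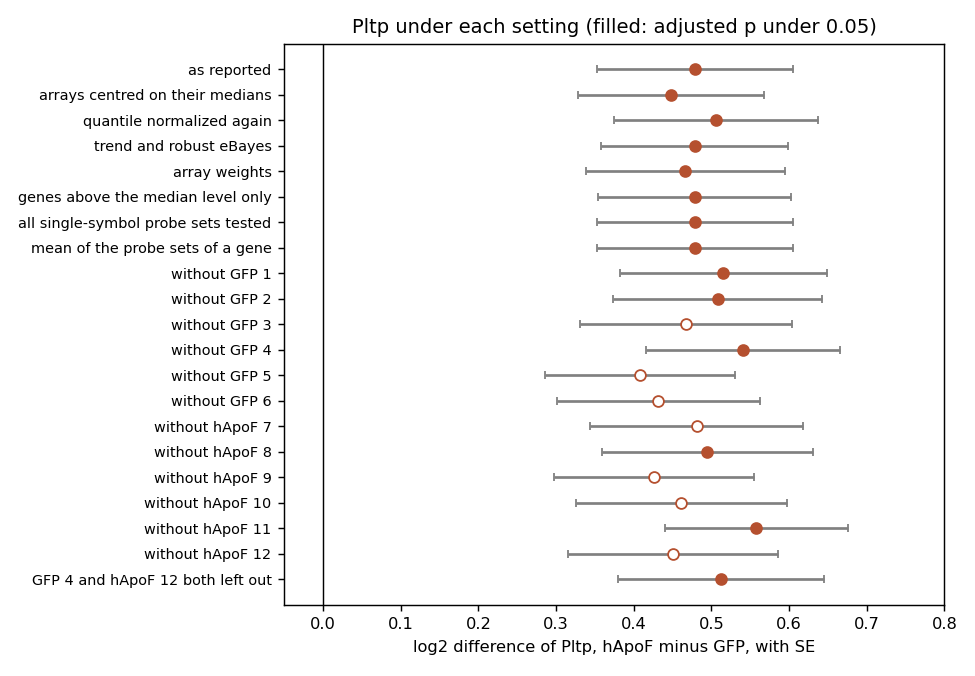
Log2 difference of Pltp, hApoF minus GFP, with its SE, in the reported fit and under each other setting. Filled points have an adjusted p below 0.05 and open points do not, and all lie between 0.41 and 0.56.

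Pltp is transcribed in hepatocytes and also in macrophages and endothelial cells, so marker levels of such cells are given beside it, to be read against the 6.91% of all genes called. Of 11 Kupffer cell and macrophage markers 2 rose, 0 fell and 9 did not pass, with list mean levels of 6.81 to 7.95 in GFP and 7.30 to 8.10 in hApoF livers. The risers were Clec4f (1.26) and Vsig4 (1.38), receptors of resident Kupffer cells. Other genes of resident Kupffer cells were Cd5l, which differed by 0.12 (limma adjusted p = 0.726), and Timd4, by 0.81 (limma adjusted p = 0.110). The general macrophage genes Adgre1 and Lyz2 each differed by -0.13, Cd68 by 0.02 and Csf1r by 0.11. Marco differed by 0.26, C1qa by 0.20 and C1qb by 0.05. None of these passed. In all 9 of the 11 markers had positive differences, 3 were higher at an unadjusted limma p below 0.05, and the median was 0.12. Vsig4 lost its call in 7 of the 12 fits without 1 array, and the stellate cell and fibroblast genes Pdgfrb and Dcn in 9 each (limma adjusted p up to 0.088, 0.095 and 0.085, each without GFP 2). Of 9 endothelial markers 1 rose, 0 fell and 8 did not pass (list mean 8.15 to 8.66 and 8.48 to 8.84), and the riser was Kdr (0.44). All 9 had positive differences (median 0.29), 6 of them with an unadjusted limma p below 0.05. Of 8 stellate cell and fibroblast markers 2 rose, Pdgfrb (0.28) and Dcn (0.26), 0 fell and 6 did not pass (7.07 to 7.39 and 7.31 to 7.71). Of these 8 markers 6 had positive differences with an unadjusted limma p below 0.05 (median 0.27). Over all genes 10.1% were higher at that p. Of 4 bile duct and 8 lymphocyte markers 0 passed. The part of these cells in the Pltp difference was not tested.

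Abca1 encodes the exporter that hands cholesterol and phospholipid to apolipoprotein A-I, the entry step of HDL formation. Its level was 10.19 to 10.40 (median 10.26) in GFP livers and 9.92 to 10.26 (median 10.08) in hApoF livers. In 5 hApoF livers the level lay below every GFP liver, and hApoF 9 lay at the GFP median. The difference was -0.19 (SE 0.07, 95% interval -0.34 to -0.04). Limma gave p = 0.016 before and 0.124 after adjustment, and the exact permutation test p = 0.0087. The adjusted p stayed between 0.051 and 0.226 under all 20 other settings, and the difference between -0.23 and -0.14.

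Both Abca1 and Pltp are known targets of the liver X receptors (LXR), sterol-sensing nuclear receptors that bind a DR4 element, a pair of hexamers spaced by 4 bases. The 250 bases before each start site (RefSeq, GRCm38.p6, minus strand, chr4:53159896-53160145 and chr2:164857709-164857958) are shown because these members had the lowest p on either side of 0. Capitals mark matches to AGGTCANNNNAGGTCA with up to 3 mismatches on either strand, and to TATAAA on either strand.
Abca1: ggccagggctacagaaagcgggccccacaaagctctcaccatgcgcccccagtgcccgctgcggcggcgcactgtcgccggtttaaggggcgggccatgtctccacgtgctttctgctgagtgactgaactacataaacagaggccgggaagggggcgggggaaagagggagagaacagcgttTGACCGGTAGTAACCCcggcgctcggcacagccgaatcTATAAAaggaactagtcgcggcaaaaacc
Pltp: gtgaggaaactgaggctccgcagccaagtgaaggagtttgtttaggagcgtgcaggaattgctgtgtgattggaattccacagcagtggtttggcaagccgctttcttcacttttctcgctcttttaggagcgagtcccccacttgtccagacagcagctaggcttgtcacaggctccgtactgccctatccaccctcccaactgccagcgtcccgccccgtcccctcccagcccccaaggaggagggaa
The Abca1 window held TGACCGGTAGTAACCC, a match on the opposite strand with 3 mismatches that begins 67 bases before the start, and TATAAA 29 bases before it. No match to either motif was in the Pltp window. Of 32851 promoter windows of this length 18.5% held the DR4 motif at 3 mismatches and 12.4% held TATAAA. The allowance was widened from 2 mismatches, at which 2.57% of windows and neither the Abca1 nor the Pltp window matched. At 3 mismatches the DR4 motif also matched before Lcat, before 1 start of Apoa2 and before 1 start of Lipc. It did not match before Apoa1, Apom or the other start of Apoa2 and of Lipc. Lcat differed by 0.03 and Apoa2 by 0.05.

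Abcg1 encodes an exporter that passes cholesterol to HDL particles already formed, and it is also an LXR target. It measured 6.09 to 6.71 (median 6.35) in GFP and 6.19 to 6.66 (median 6.52) in hApoF livers. The hApoF values lay wholly inside the GFP range. The difference was 0.07 (SE 0.11, 95% interval -0.17 to 0.31, limma adjusted p = 0.770, exact permutation p = 0.565). The levels lie below the upper quartiles of the arrays, and the interval allows changes from 0.889-fold to 1.24-fold. Leaving out 1 array at a time gave differences from 0.011 (without GFP 2) to 0.13 (without GFP 3).

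Scarb1 encodes SR-BI, the receptor through which hepatocytes take cholesteryl ester from HDL. It measured 9.21 to 9.54 (median 9.38) in GFP and 9.06 to 9.47 (median 9.33) in hApoF livers. The groups overlapped throughout except for hApoF 12 below and GFP 4 above the other group. The difference was -0.07 (SE 0.08, 95% interval -0.24 to 0.10, limma adjusted p = 0.670, exact permutation p = 0.379). It was 0.013 with GFP 4 and hApoF 12 both left out.

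Beyond the members, 5 lists of other HDL-related genes held 60 genes, of which 50 were measured. Of these 50 genes 4 rose, 1 fell and 45 did not pass, that is 10.0% called against 6.91% of all genes. The latter share includes dim genes. In a fit limited to the 11090 genes above the median level, 2107 genes were called, 10 of them from the lists. The risers were Pon1, Mylip, Npc2 and Stard4, and the faller was Angptl4.

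Among 14 measured minor proteins of HDL 1 rose, 0 fell and 13 did not pass (median difference 0.05). At an unadjusted limma p below 0.05, 5 were higher and 0 lower, against 10.1% and 11.1% of all genes. Pon1 encodes paraoxonase 1, a liver enzyme that travels on HDL. It measured 11.27 to 11.67 (median 11.37) in GFP and 11.70 to 12.14 (median 11.77) in hApoF livers, with no overlap between the groups. It rose by 0.39 (SE 0.10, limma adjusted p = 0.021), and did not pass when GFP 3 (0.055) or GFP 6 (0.056) was left out.

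Of 9 measured LXR receptors and other LXR targets 1 rose, 0 fell and 8 did not pass (median 0.03). At an unadjusted limma p below 0.05, 4 were higher and 1 lower, against 10.1% and 11.1% of all genes. Mylip, an LXR-induced ubiquitin ligase, measured 6.75 to 6.96 (median 6.89) in GFP and 7.20 to 7.65 (median 7.34) in hApoF livers. The groups were apart, and the rise was 0.50 (SE 0.08, limma adjusted p = 8.7e-04). In all 6 of the 9 had positive differences. The 8 that did not pass were Abcg5 (0.24), Smpdl3a (0.23, limma adjusted p = 0.070), Scd1 (0.18), Rxra (0.03), Lpcat3 (0.02), Abcg8 (-0.06), Srebf1 (-0.09) and Nr1h3, the gene of LXR alpha itself (-0.19). Smpdl3a and Scd1 were called with trend and robust settings and over genes above the median level. Smpdl3a was also called after a further quantile normalization, with array weights, without GFP 4, and with GFP 4 and hApoF 12 left out.

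None of 8 transcription factors of HDL genes passed (median 0.07). An unadjusted limma p below 0.05 was found for 1 of them, against 21.3% of all genes. The lowest p was that of Nr1h4, which encodes the bile acid receptor FXR. It measured 9.79 to 10.07 (median 9.94) in GFP and 10.04 to 10.36 (median 10.11) in hApoF livers, a difference of 0.23 (SE 0.07, limma adjusted p = 0.077). Only GFP 2 reached into the hApoF range. With trend and robust settings the adjusted p was 0.032, and 0.030 over genes above the median level.

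Of 11 measured genes of HDL uptake, processing and partner proteins 0 rose, 1 fell and 10 did not pass (median 0.01). At an unadjusted limma p below 0.05, 1 was higher and 2 lower, against 10.1% and 11.1% of all genes. The faller was Angptl4, a secreted inhibitor of lipoprotein lipase, at 9.74 to 9.94 (median 9.86) in GFP and 9.34 to 9.68 (median 9.52) in hApoF livers. The groups did not overlap, and it fell by 0.34 (SE 0.07, limma adjusted p = 0.0084). Lrp1, a remnant receptor of hepatocytes (0.29, limma adjusted p = 0.055), and Cd36, a scavenger receptor and fatty acid transporter (-0.44, 0.085), did not pass. Lrp1 was called with trend and robust settings, with array weights and without hApoF 12. Lrp1 and Cd36 were both called over genes above the median level, without GFP 5, and with GFP 4 and hApoF 12 left out. Both were chosen after their values were seen.

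Of 8 measured genes of cholesterol delivery and esterification inside the cell 2 rose, 0 fell and 6 did not pass (median 0.11). No further gene of this list had an unadjusted limma p below 0.05, where 21.3% of all genes did. Npc2 encodes the soluble protein that lifts cholesterol out of lysosomes. It measured 7.95 to 8.25 (median 8.07) in GFP and 8.37 to 8.77 (median 8.47) in hApoF livers, and the groups were apart. It rose by 0.42 (SE 0.08, limma adjusted p = 0.0051). Stard4, a carrier of cholesterol between membranes that sterol shortage induces, measured 7.42 to 7.98 (median 7.65) and 7.90 to 8.70 (median 8.29). Only GFP 4 reached into the hApoF range, and the rise was 0.60 (SE 0.12, limma adjusted p = 0.0061). Mylip, Angptl4, Npc2 and Stard4 kept their calls in all 12 fits that left out 1 array.

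**Figure D4:**
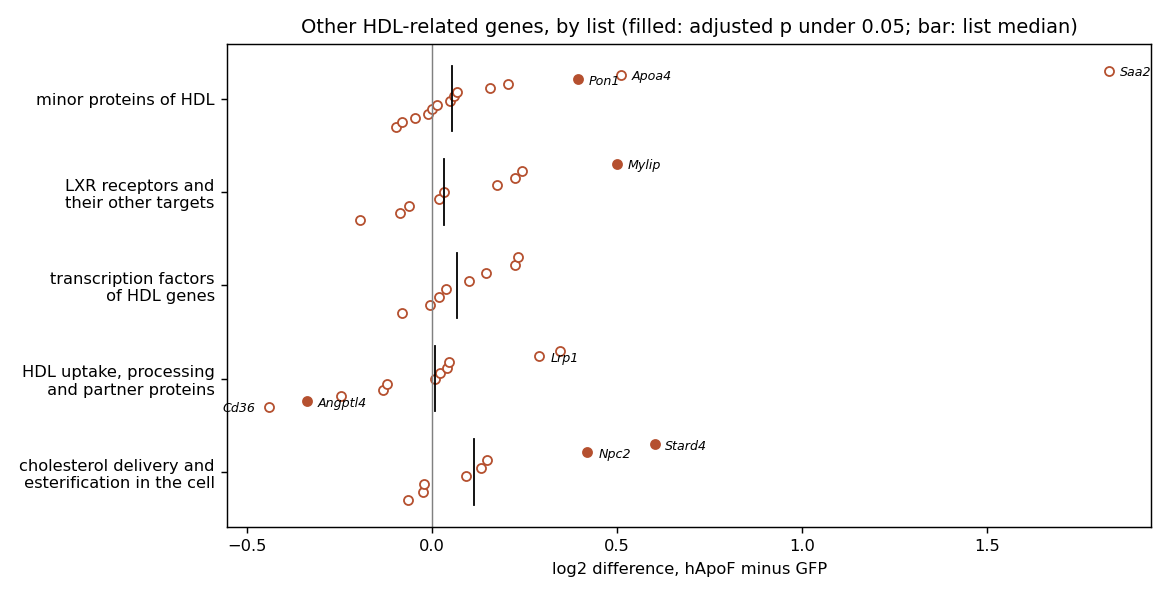
Log2 difference, hApoF minus GFP, of the 50 measured genes of the 5 lists, 1 point per gene. Filled points passed the adjusted test (Pon1, Mylip, Angptl4, Npc2, Stard4), vertical bars are list medians between 0.01 and 0.11, and Saa2 stands at 1.83 without passing.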

How the data were processed

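The authors deposited log2 values, 1 per probe set and array, for 12 arrays. Per the submitters' processing notes the authors used oligo and RMA (background correction, quantile normalization, probe summary), and no version or genome build is given in the sources used here. Values were used as deposited, without a filter on dim probe sets. Genes were named through the platform annotation, and each of 22180 genes was represented by its brightest single-symbol probe set.

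hApoF was compared with GFP without covariates by lmFit and eBayes of limma 3.58.1 (R 4.3.3), with Benjamini-Hochberg adjustment over all genes and a threshold of 0.05. Differences are log2, hApoF minus GFP, and confidence intervals are not adjusted for the number of genes. Exact permutation tests used all 924 assignments, two-sided, with a smallest possible p of 0.0022, and their p-values are not adjusted over genes. Fits were tested on simulated data with 50 changed genes per effect size. At a log2 change of 0.25 the fit recovered 5 of 50, at 0.5 34, at 1 48 and at 2 50. Calls were also made for 9 unchanged genes. The number of arrays limits the precision. Tables and plots were made with Python 3.11.15.

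The members and lists were chosen with earlier results of these data known. Named are all members, from each list up to 2 risers and 2 fallers with the lowest p (or the gene with the lowest p), and the 3 genes most like Apof. Other genes were chosen after their values were seen. List genes without a single-symbol probe set were not analysed here.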

Additional observations from a re-analysis of the deposited data

Results flagged for a closer look

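A sample far from the rest of its group was looked for in 38 groups of 6 arrays, and chance alone flags about 5% of such groups. In 2 of them a sample stood apart. Apom in hApoF 12 was 8.26, against 8.57 in the next lowest hApoF liver, and this gap took 0.747 of the group's range. Mylip in hApoF 12 was 7.65, against 7.36 in the next highest, with a gap of 0.649 of the range. Both ratios exceed the 95% critical value of Dixon's test for a group of this size.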

How the results depend on the processing

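No paired analysis was possible because the groups share no replicate number. The counts of calls and the differences of the members, of 6 list genes and of the 5 markers that passed (the last added after seeing the data) were recomputed in 20 other ways. List medians, permutation tests and correlations were not. The 8 members other than Pltp stayed outside the threshold in all of them. Pltp passed in all 8 that did not leave out a single array (adjusted p of 0.016 to 0.035). Leaving out 1 array in turn, its difference ranged from 0.41 to 0.56, the members called from 0 to 1, the list genes called from 4 to 8, and all genes called from 1015 (without GFP 3) to 1988 (without GFP 4), against 1533. They were also 1019 without GFP 2 and 1021 without GFP 6. The list genes called were 5 as reported, 9 with trend and robust settings and 10 over genes above the median level. They were 8 without hApoF 12 and 8 with GFP 4 and hApoF 12 both left out. In the same 4 other fits all genes called were 1946 of 22180, 2107 of only 11090, 1395 of 22180 and 2049 of 22180. The list counts are to be read against these. Signs turned only in members far from the threshold. Lcat was -0.0060 after a further quantile normalization and -0.0057 to 0.066 over the single omissions, Apom -0.076 to 0.0066 over them, and Scarb1 0.013 with GFP 4 and hApoF 12 both left out. The cause of these shifts was not tested.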

Other observations

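Saa2, an acute phase apolipoprotein that enters HDL in inflammation, varied more than any member. It was 6.94 to 10.58 (median 8.27) in GFP livers and 7.38 to 12.69 (median 10.05) in hApoF livers. Its difference was 1.83 (SE 0.76, limma adjusted p = 0.176), with SDs of 1.29 and 1.88 (n = 6 each). The lowest hApoF value was that of hApoF 12, and the highest that of hApoF 7.

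Apoa1 is followed on chromosome 9 by Apoc3, Apoa4 and Apoa5, apolipoprotein genes with no other annotated gene between them in GRCm38.p6. Apoa4, an HDL and chylomicron protein, was 10.44 to 10.89 (median 10.60) in GFP and 10.40 to 11.87 (median 11.17) in hApoF livers (difference 0.51, limma adjusted p = 0.121). Apoa5, which promotes triglyceride clearance, differed by 0.20 (limma adjusted p = 0.141) and Apoc3, an inhibitor of that clearance, by -0.01 (adjusted p = 0.950). None of the 4 neighbours passed over all 12 arrays. Apoa4 was called without hApoF 10, and Apoa5 and Saa2 without hApoF 12. These genes were chosen after their values were seen.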
